A study of Zea mays with 48 samples.

Results

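The change with embryo age in the difference between reciprocal maize crosses was examined as an interaction, the MB over BM difference at 13 days after pollination (DAP) against the same difference at 5 DAP. It rests on 12 of the 48 libraries of the study, the embryos collected by hand at these ages. MB embryos had Mo17 as the seed parent and B73 as the pollen parent. BM embryos had B73 as the seed parent and Mo17 as the pollen parent. Both inbred lines were grown in the field, the embryos of both crosses are F1 hybrids of the same lines, and only the direction of the cross differs. The 4 groups were MB at 13 DAP, BM at 13 DAP, MB at 5 DAP and BM at 5 DAP, with 3 libraries each. Per the labels' protocols a library came from a pool of many embryos, more of them at 5 than at 13 DAP, taken from at least 3 ears, so a value is an average over many embryos and says nothing of single ones. The seed parent also supplies the surrounding ear and seed coat, so a parent's allele and its maternal tissue cannot be told apart here.

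Embryos of reciprocal crosses carry the same nuclear alleles, but they differ in their cytoplasm, in the stored products of the egg, in the genotype of the seed coat and in the dose of each parent in the endosperm. In maize the embryo first grows as a small club-shaped body inside the endosperm, then forms a shoot meristem and a scutellum, and later leaf primordia and reserves. Genes of the KNOX and YABBY families mark the founding of the shoot meristem and of leaf organs, whereas the endosperm next to the embryo expresses small secreted peptides of the embryo-surrounding region and of the basal transfer layer.

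Total counts per library ran from 12037753 to 21698127, and log expression within a group correlated at 0.955 or above, the lowest value being in BM at 5 DAP. The embryo label was checked against marker genes. The summed level of 26 KNOX, WOX and YABBY genes, in CPM (reads of a gene scaled to a common library total), ran from 281 to 311 in MB and from 340 to 416 in BM embryos at 13 DAP, and from 554 to 641 in MB and from 218 to 278 in BM embryos at 5 DAP. The endosperm dissected at 5 DAP held 62.4 to 71.6 CPM of these genes in MB and 78.5 to 78.8 CPM in BM, below every embryo library. Markers of other tissues were present too. The sum of 17 transfer layer and embryo-surrounding genes was 15.2 to 40.5 CPM in MB and 561 to 1041 CPM in BM embryos at 13 DAP. At 5 DAP it was 2646 to 2708 CPM in MB and 14303 to 16163 CPM in BM embryos. The endosperm dissected at 5 DAP held less in each cross, 207 to 1181 CPM in MB and 2549 to 3584 CPM in BM. Laser-captured embryos of 5 DAP held 7277 to 28413 CPM in MB and 3221 to 8892 CPM in BM. No member of that list was at 0 in all 3 libraries of any of the 4 groups. Zeins with their regulators o2 and pbf1, 19 genes of the later endosperm, summed to 748 to 869 CPM in MB and 2374 to 3409 CPM in BM embryos at 13 DAP. They held 91.2 to 101 CPM in MB and 93.5 to 101 CPM in BM embryos at 5 DAP, where 3 of the genes had no read in any MB library and 5 none in any BM library. The 6 ovule MADS genes summed to 10.04 to 11.01 CPM in MB and 16.04 to 18.6 CPM in BM embryos at 13 DAP, and to 16.8 to 22.8 CPM in MB and 19.8 to 28.3 CPM in BM embryos at 5 DAP. The transfer layer sum was thus lower in MB than in BM at both ages and the zein sum at 13 DAP only, and their part in the results below was not tested. In such bulk samples fewer cells of a type and less RNA per cell cannot be told apart.

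**Figure D1:**
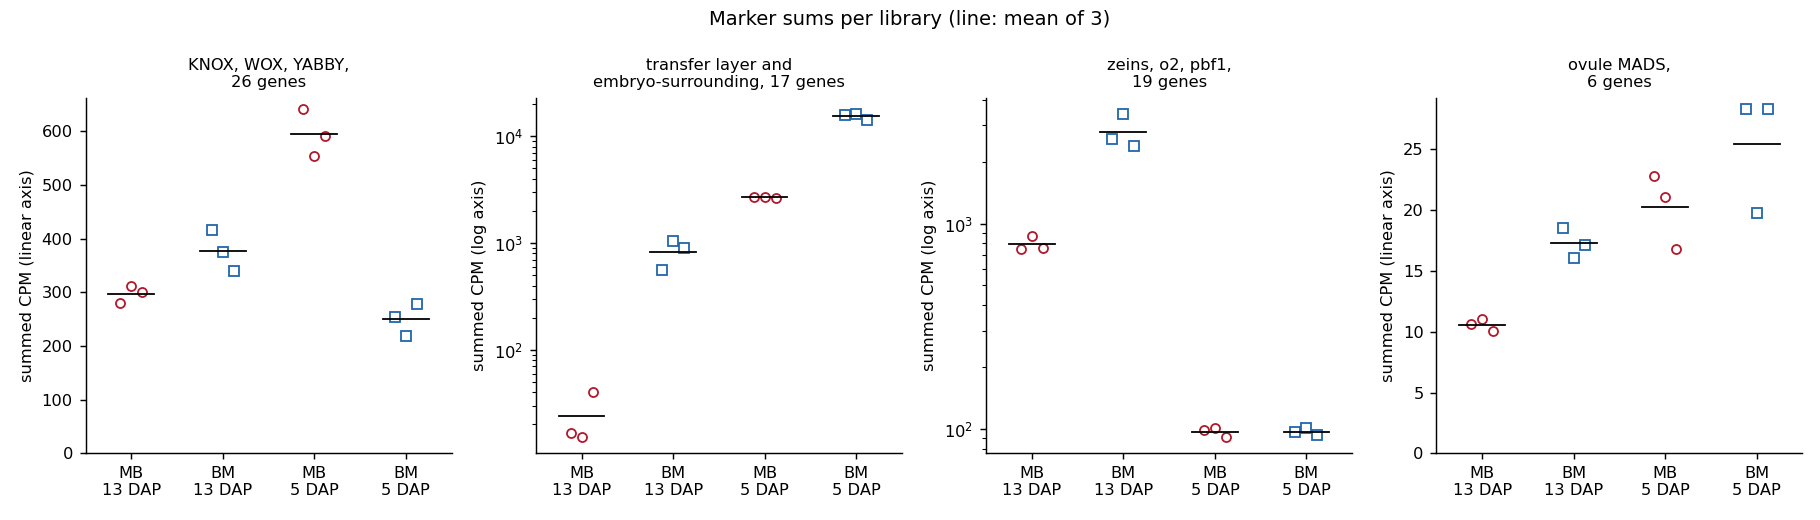
Summed CPM of 4 marker lists in each of the 12 libraries (points) by cross and age, on linear axes for the KNOX, WOX and YABBY genes and the ovule MADS genes and on log axes for the endosperm lists. The embryo list was lower in BM than in MB embryos at 5 DAP, and both endosperm lists were higher in BM than in MB embryos at 13 DAP.

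Of 23141 genes tested with edgeR's quasi-likelihood test, 5558 had an interaction of cross with age at a Benjamini-Hochberg adjusted p under 0.05, which is 24% of the genes tested. Called genes split evenly by sign, with 2772 positive (12%), meaning that MB over BM was greater at 13 than at 5 DAP, and 2786 negative (12%). An absolute log2 interaction of at least 1 was reached by 2252 of them. The split depends on the unit, on the libraries that share the fit and on the size required. On the authors' FPKM values with a pseudocount of 1, 1717 of 5628 called genes were positive, and with 0.1 1459 of 5344. In a single fit over all 48 libraries 291 of 757 were positive. Only 795 of the 2252 genes with a large change were positive. At 13 DAP 5547 genes differed between the crosses (24%), 3057 of them higher in MB (13.2%) and 2490 lower (10.8%). At 5 DAP 6465 genes differed (27.9%), 3185 higher in MB (13.8%) and 3280 lower (14.2%). On FPKM with a pseudocount of 1 these splits were 1998 higher of 4293 at 13 DAP and 4536 higher of 6407 at 5 DAP, and with 0.1 they were 1898 of 4330 and 4400 of 6039. Of the 2364 genes called at both ages 1396 kept their sign and 968 had the opposite one. The median log2 difference over all genes tested was -0.02 at 13 DAP and 0.01 at 5 DAP, and the median interaction was -0.07.

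The interaction genes were sorted by the calls at each age, a description of the tests and not a further one. Fading genes, called at 5 DAP and not at 13 DAP, numbered 2058, of which 1222 were higher in MB and 836 higher in BM at 5 DAP. Appearing genes, called at 13 DAP only, numbered 1651, of which 955 were higher in MB and 696 higher in BM. Turning genes, called at both ages with opposite signs, numbered 968: 662 became higher in MB at 13 DAP and 306 became higher in BM. A further 215 genes had the same sign at both ages and a difference that grew, and 150 had one that shrank. Another 489 were called at neither age, and 27 met no definition. With FPKM and a pseudocount of 1, 2004 of 2646 fading genes were higher in MB at 5 DAP, 583 of 1439 appearing genes were higher in MB and 269 of 721 turning genes turned to MB. With 0.1 these splits were 1945 of 2424, 525 of 1436 and 272 of 704, and with an absolute log2 value of at least 1 required of the interaction and at both ages 52 of 114 turning genes turned to MB. With that size required of the interaction alone, 317 genes turned to MB and 217 to BM. At the threshold, GRMZM2G469747 (interaction log2 -0.62, adjusted p = 0.049986) and GRMZM5G860715 (-1.18, 0.049995) lay just inside, and GRMZM2G055276 (0.22, 0.050023) and GRMZM2G057301 (-1.50, 0.050024) just outside.

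**Figure D2:**
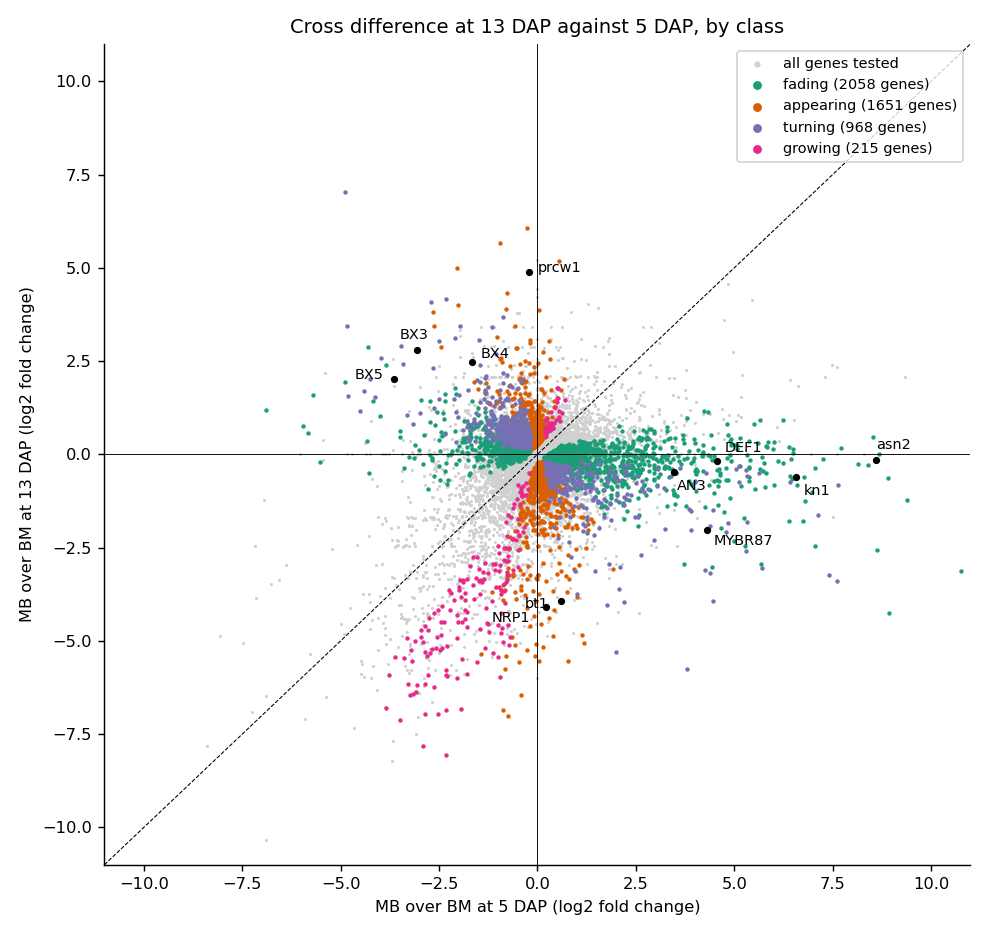
Each gene tested by its log2 MB over BM difference at 5 DAP (horizontal axis) and at 13 DAP (vertical axis), with 4 classes of interaction genes in colour, all other genes in grey and some named genes in black. The dashed line marks an equal difference at both ages; the 2058 fading genes lie along the horizontal axis, the 1651 appearing genes along the vertical axis and the 968 turning genes in the upper left and lower right quadrants.

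The cross that moved with age differed by class. From 5 to 13 DAP 61.5% of all genes tested changed in MB (28.9% rose and 32.6% fell) and 59.5% in BM (29.3% rose and 30.2% fell). Among the 1222 genes that faded from a higher level in MB, 914 rose in BM and 87 fell, while in MB 368 rose and 425 fell. Their median log2 MB over BM difference was -0.13 at 13 DAP and 0.90 at 5 DAP. Of the 836 genes that faded from a higher level in BM, 513 fell in BM and 103 rose, whereas 394 rose and 184 fell in MB. Among the appearing genes 762 of the 955 that became higher in MB rose in MB and 70 fell, while in BM 406 rose and 244 fell. Of the 696 that became higher in BM 558 fell in MB and 23 rose, while in BM 248 fell and 171 rose. Among the turning genes 518 of the 662 that turned to MB rose in MB and 364 fell in BM, and 238 of the 306 that turned to BM fell in MB and 161 rose in BM. These counts use the same libraries as the interaction and describe it.

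Shoot meristem genes moved in a single direction where they were called. Of 31 members matched, 24 passed the filter on low counts, 13 had a negative interaction (54.2% of those tested) and none a positive one, with a median of -2.03. The counts for this and the other lists stand against the 12% of all genes called in each direction, 24% in all, and a share near these is no result about a list. At 13 DAP 2 were called higher and 10 lower in MB, and at 5 DAP 12 were called higher and 2 lower in MB. The level of kn1 (GRMZM2G017087), the KNOX homeobox gene that keeps shoot meristem cells undifferentiated, was 14.2, 13.3 and 13.2 CPM in MB and 23.9, 22.5 and 19.7 CPM in BM embryos at 13 DAP. At 5 DAP the values were 78.7, 83.8 and 70.1 CPM in MB and 0.814, 0.831 and 0.621 CPM in BM embryos. At 5 DAP the BM libraries lay far below the MB libraries without overlap, while at 13 DAP they were moderately above them. The log2 difference was -0.61 ± 0.11 at 13 DAP and 6.58 ± 0.17 at 5 DAP (± SE here and below), and the interaction was -7.19 ± 0.21 (adjusted p = 2.02e-15). The gap came with opposite courses in the crosses, as kn1 rose by 4.90 on the log2 scale from 5 to 13 DAP in BM and had a log2 change of -2.29 in MB, both called. In embryos of 7 DAP, which did not enter the fit, kn1 was at 70.3, 63.1 and 86.4 CPM in MB and 73.8, 76 and 71.6 CPM in BM embryos, and the crosses overlapped. In laser-captured embryos of 5 DAP it was at 0, 11.1 and 0.274 CPM in MB and 0.517, 0.635 and 0 CPM in BM, where the crosses overlapped and 1 MB library was above the others.

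Other KNOX genes were also low in BM at 5 DAP. The KNOX gene knox4 (GRMZM2G452178) was at 8.24, 8.64 and 8.11 CPM in MB and 16.6, 15.9 and 11.9 CPM in BM embryos at 13 DAP. The 5 DAP levels were 16.8, 11.5 and 15.4 CPM in MB and 0.271, 0 and 0.155 CPM in BM embryos, and the interaction was -7.17 ± 0.43 (adjusted p = 1.93e-10). The related lg3 averaged 11.1 ± 1.49 CPM in MB and 16.7 ± 0.534 CPM in BM embryos at 13 DAP. Earlier, at 5 DAP, the means were 12.7 ± 0.178 CPM in MB and 1.47 ± 1.43 CPM in BM embryos (mean ± SD, n = 3 libraries here and below), and its interaction was -3.45 ± 0.48 (adjusted p = 1.41e-04). The MYB gene rs2, a repressor of KNOX genes in leaves, averaged 7.06 ± 2.22 CPM in MB and 9.83 ± 1.58 CPM in BM embryos at 13 DAP. The means at 5 DAP were 15.6 ± 2.64 CPM in MB and 2.31 ± 1.26 CPM in BM embryos, and the interaction was -3.05 ± 0.41 (adjusted p = 2.56e-05). Receptors of meristem size signals turned from MB to BM: fea3, a leucine-rich repeat receptor, averaged 27 ± 2.14 CPM in MB and 39.2 ± 3.63 CPM in BM embryos at 13 DAP. By comparison, 5 DAP means were 13.9 ± 2.59 CPM in MB and 3.72 ± 0.644 CPM in BM embryos, and the interaction was -2.26 ± 0.21 (adjusted p = 1.59e-07). The CLAVATA1-like receptor kinase TD1 averaged 3.59 ± 1.57 CPM in MB and 9.49 ± 4.48 CPM in BM embryos at 13 DAP. In 5 DAP libraries the means were 26.8 ± 6.93 CPM in MB and 7.06 ± 1.06 CPM in BM embryos, and the interaction was -3.16 ± 0.53 (adjusted p = 0.00132). The embryo homeobox gene wox2A fell with age in both crosses and averaged 0.356 ± 0.1 CPM in MB and 1.9 ± 0.605 CPM in BM embryos at 13 DAP. The younger embryos of 5 DAP had means of 16.3 ± 4.52 CPM in MB and 8.78 ± 1.89 CPM in BM embryos, and the interaction was -3.15 ± 0.48 (adjusted p = 5.46e-05). The WOX gene ns1, known for the founding of leaf margins, had no read in the 3 BM libraries at 5 DAP, so that it was at least 48.4-fold higher in MB there, against the floor of 3 counts over the group. Of the 13 called members, HB85 lost its call without replicate 1 or 2 of BM at 13 DAP or replicate 1 or 3 of MB at 13 DAP (adjusted p 0.0515 to 0.0921). The call of wox9C was lost without replicate 3 of MB at 13 DAP, replicate 1 of BM at 13 DAP or replicate 1 or 3 of MB at 5 DAP (adjusted p 0.0544 to 0.105), and 4 members lost theirs in the fit over all 48 libraries. The list had 9 negative members and 1 positive member on FPKM with a pseudocount of 1.

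YABBY genes, transcription factors of lateral organ polarity, moved in both directions. Of 13 tested list members 4 had a negative and 3 a positive interaction (30.8% and 23.1%, against 12% of all genes each). The gene yab14 (GRMZM2G005353) was at 50.4, 54.9 and 56.8 CPM in MB and 86.6, 85.6 and 70.3 CPM in BM embryos at 13 DAP. Before that, at 5 DAP, the values were 88.7, 79.3 and 82.2 CPM in MB and 0.882, 1.91 and 2.02 CPM in BM embryos. As in kn1, BM was far below MB at 5 DAP and above it at 13 DAP, and the interaction was -6.13 ± 0.21 (adjusted p = 9.58e-14). At 7 DAP yab14 was at 115, 97 and 95.3 CPM in MB and 106, 116 and 94.2 CPM in BM embryos, where the crosses overlapped. The differences of yab10, yabby15 and yab9 faded, with interactions of -3.59 ± 0.22, -3.11 ± 0.24 and -2.69 ± 0.29. For yab10 this came from 34.4 ± 2.44 CPM in MB and 47.2 ± 4.25 CPM in BM embryos at 13 DAP. Means at 5 DAP were 66.1 ± 5.87 CPM in MB and 6.57 ± 2.37 CPM in BM embryos. In the other direction rld2, a leaf polarity gene, turned to MB and averaged 84.8 ± 4.72 CPM in MB and 60.2 ± 1.78 CPM in BM embryos at 13 DAP. The 5 DAP means were 59.9 ± 1.83 CPM in MB and 81.9 ± 5.55 CPM in BM embryos, and the interaction was 1.12 ± 0.11 (adjusted p = 1.57e-07). Across the whole list 5 of the 7 calls were lost in the fit over all 48 libraries.

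**Figure D3:**
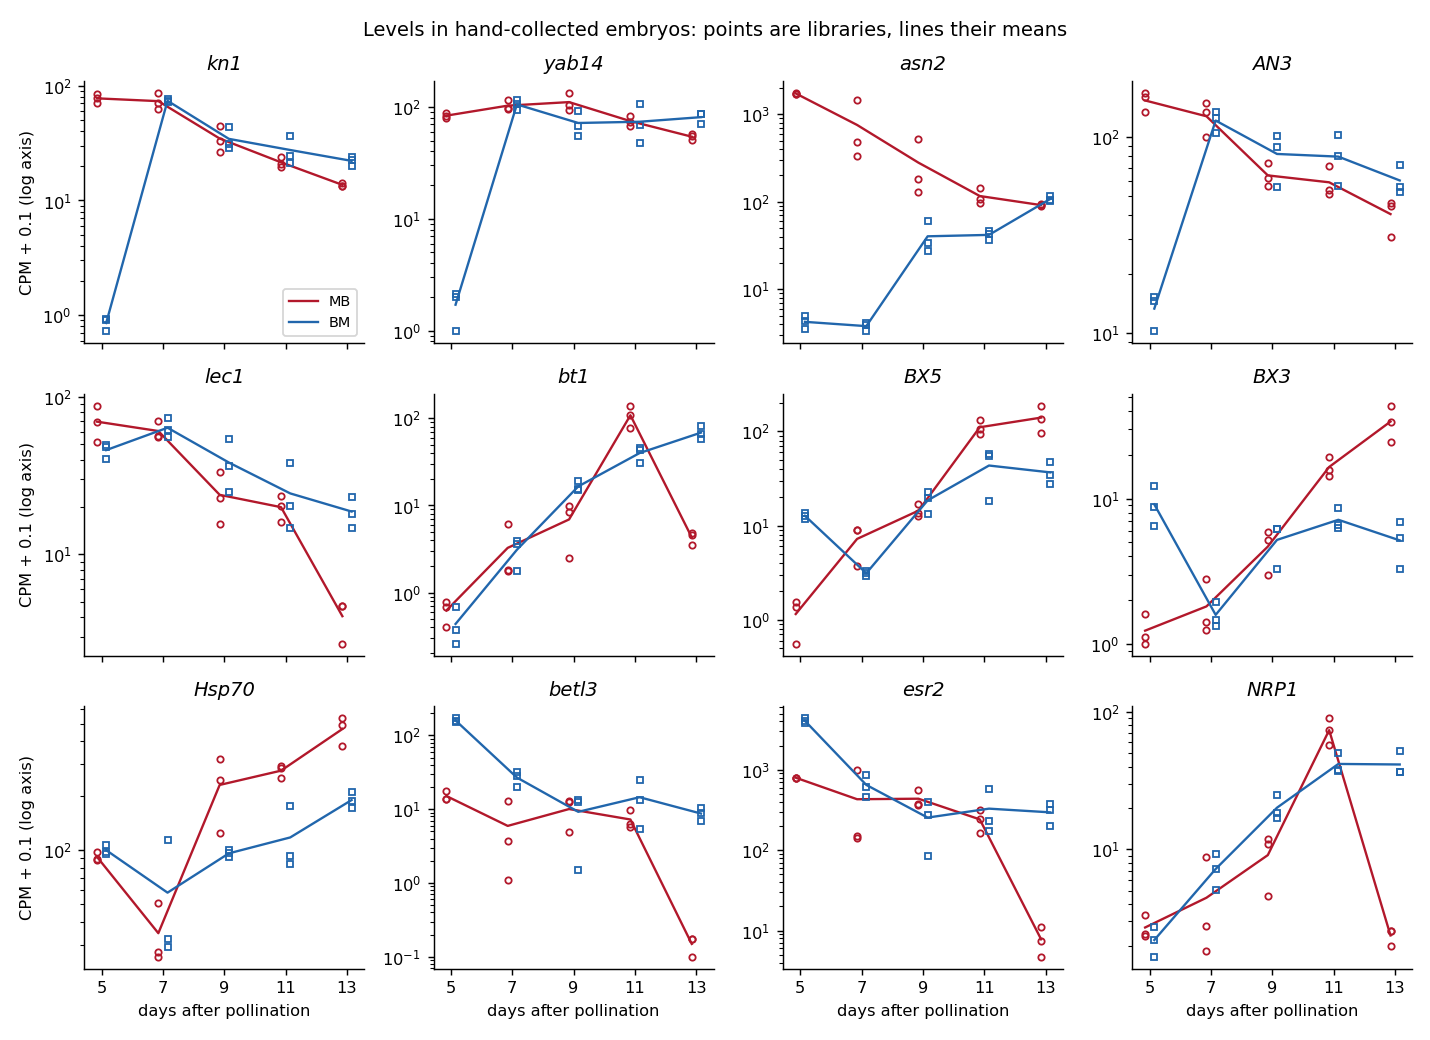
CPM (plus 0.1, log axis) of 12 genes in hand-collected embryos from 5 to 13 DAP, with MB libraries as red circles, BM libraries as blue squares and lines through the group means. kn1 and yab14 were low in BM only at 5 DAP, asn2 was low in BM up to 7 DAP, and bt1 and NRP1 were higher in MB at 11 DAP and higher in BM at 13 DAP.

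The fading gene with the largest interaction among those with an informative name was asn2 (GRMZM2G093175), which encodes an asparagine synthetase. It was at 88.5, 94 and 92.6 CPM in MB and 117, 105 and 101 CPM in BM embryos at 13 DAP. For 5 DAP the levels were 1725, 1713 and 1750 CPM in MB and 4.28, 3.41 and 4.82 CPM in BM embryos. All MB libraries at 5 DAP exceeded the BM libraries by more than 2 orders of magnitude, whereas at 13 DAP the MB libraries were slightly lower. The interaction was -8.75 ± 0.13 (adjusted p = 1.11e-20) and the 13 DAP difference, -0.14 ± 0.07, was not called (adjusted p = 0.176). The difference narrowed through ages outside the fit. At 7 DAP asn2 stood at 336, 479.5 and 1449 CPM in MB and 3.21, 4.08 and 3.84 CPM in BM embryos, a log2 difference of 7.61 ± 0.88 (adjusted p = 0.0187). At 11 DAP it averaged 116 ± 25 CPM in MB and 41.9 ± 5.14 CPM in BM embryos, a log2 difference of 1.52 ± 0.15 (adjusted p = 2.39e-04). Other nitrogen genes took several courses, and of 14 tested members 6 had a negative and 2 a positive interaction (42.9% and 14.3%, against 12% of all genes each). DESeq2 called 6 negative and 4 positive, and limma on FPKM with a pseudocount of 1 called 4 and 3. The glutamine synthetase gene gln5 faded from a higher level in BM and averaged 9.86 ± 2.36 CPM in MB and 8.07 ± 2.38 CPM in BM embryos at 13 DAP. Earlier, at 5 DAP, the means were 33.5 ± 6.48 CPM in MB and 71 ± 11.8 CPM in BM embryos, and the interaction was 1.52 ± 0.33 (adjusted p = 0.00565). The gene gln4 of the same family turned to MB and averaged 59.6 ± 12 CPM in MB and 45.2 ± 6.71 CPM in BM embryos at 13 DAP. The means at 5 DAP were 110.0 ± 7.13 CPM in MB and 202 ± 8.33 CPM in BM embryos, and the interaction was 1.45 ± 0.20 (adjusted p = 1.45e-04).

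Further genes that were higher in MB at 5 DAP had their difference fade in the same way. AN3 (GRMZM2G180246), a coactivator of growth-regulating factors, was at 30.7, 46 and 44.4 CPM in MB and 72.3, 55.7 and 52.1 CPM in BM embryos at 13 DAP. By comparison, 5 DAP values were 159.7, 134 and 168 CPM in MB and 14.5, 10.1 and 15.1 CPM in BM embryos. In AN3 the crosses stood apart at both ages, with MB lower at 13 DAP, though the 13 DAP difference of -0.48 ± 0.19 was not called. Its interaction was -3.94 ± 0.28 (adjusted p = 3.31e-06). DEF1 was at 283, 424 and 401 CPM in MB and 475, 439 and 420.5 CPM in BM embryos at 13 DAP. In 5 DAP libraries the levels were 110.2, 106 and 118 CPM in MB and 4.68, 5.65 and 3.03 CPM in BM embryos. For DEF1, BM embryos were far lower at 5 DAP and the crosses overlapped at 13 DAP, giving an interaction of -4.73 ± 0.28 (adjusted p = 1.10e-06). GRAS19, of the GRAS family of transcription factors, averaged 3.33 ± 0.606 CPM in MB and 3.96 ± 0.899 CPM in BM embryos at 13 DAP. The younger embryos of 5 DAP had means of 16.4 ± 1.74 CPM in MB and 0.951 ± 0.89 CPM in BM embryos, and the interaction was -4.12 ± 0.65 (adjusted p = 4.28e-04). The largest interaction of any fading gene named by rule was in the unnamed GRMZM2G035045, which had 693 reads over the 3 MB libraries and none in BM at 5 DAP, at least 209.86-fold higher in MB against a floor of 3 counts over the group.

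Genes that were higher in BM at 5 DAP and faded had a median log2 difference of 0.14 at 13 DAP and -0.56 at 5 DAP. ARF5, an auxin response factor, averaged 3.76 ± 0.712 CPM in MB and 2.73 ± 0.38 CPM in BM embryos at 13 DAP. Before that, at 5 DAP, the means were 7.13 ± 0.711 CPM in MB and 22 ± 0.593 CPM in BM embryos, and the interaction was 2.24 ± 0.27 (adjusted p = 3.91e-06). THX20, of the trihelix family of transcription factors, rose with age in both crosses and averaged 24.8 ± 2.43 CPM in MB and 21.3 ± 1.66 CPM in BM embryos at 13 DAP. Means at 5 DAP were 2.98 ± 0.606 CPM in MB and 7.28 ± 2.04 CPM in BM embryos, and the interaction was 1.68 ± 0.27 (adjusted p = 1.24e-04). LAZ1-6 had an interaction of 2.02 ± 0.37 (adjusted p = 5.19e-04) and NHX5, of the sodium/proton exchanger family, one of 1.42 ± 0.23 (adjusted p = 1.41e-04). The unnamed GRMZM5G851266 averaged 0.0742 ± 0.0721 CPM in MB and 0.0954 ± 0.0591 CPM in BM embryos at 13 DAP. The 5 DAP means were 0.872 ± 0.173 CPM in MB and 38.7 ± 5.48 CPM in BM embryos. Its interaction of 5.33 ± 1.25 (adjusted p = 0.00356) was no longer called without replicate 2 of MB at 13 DAP (adjusted p = 0.141). Across 48 tested auxin genes 18 had a positive and 10 a negative interaction (37.5% and 20.8%, against 12% of all genes each), with 14 and 12 on FPKM with a pseudocount of 1. The response factors ARF18, ARF9 and ARF17 turned from BM to MB. ARF18 averaged 246 ± 6.39 CPM in MB and 141 ± 6.26 CPM in BM embryos at 13 DAP. For 5 DAP the means were 122 ± 4 CPM in MB and 173 ± 4.27 CPM in BM embryos, and the interaction was 1.49 ± 0.09 (adjusted p = 1.93e-10). ARF9 and ARF17 had interactions of 1.63 ± 0.11 and 1.55 ± 0.12. ARF2 averaged 35 ± 3.72 CPM in MB and 34 ± 4.85 CPM in BM embryos at 13 DAP. Earlier, at 5 DAP, the means were 78.9 ± 6.2 CPM in MB and 176 ± 7.14 CPM in BM embryos, a difference that was called at 5 DAP only. AUX27, named for the AUX/IAA family of auxin response repressors, faded from a higher level in MB and averaged 24.5 ± 1.17 CPM in MB and 29.8 ± 3.98 CPM in BM embryos at 13 DAP. The means at 5 DAP were 31.3 ± 1.34 CPM in MB and 6.67 ± 0.428 CPM in BM embryos, and the interaction was -2.34 ± 0.17 (adjusted p = 4.13e-09). In the fit over all 48 libraries 21 of the 28 auxin calls were lost, and 7 were lost in at least 1 fit that left out a library.

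The genes that turned to MB with the largest interactions among those named by rule were 3 cytochrome P450 genes of benzoxazinoid synthesis, the pathway of the main chemical defence of young maize. BX3 (GRMZM2G167549) was at 24.2, 43.3 and 33.5 CPM in MB and 6.76, 5.25 and 3.16 CPM in BM embryos at 13 DAP. By comparison, 5 DAP levels were 1.01, 0.899 and 1.5 CPM in MB and 12, 6.4 and 8.62 CPM in BM embryos. Every MB library was above the BM libraries at 13 DAP and below them at 5 DAP. BX4 (GRMZM2G172491) was at 41.4, 62.5 and 47.9 CPM in MB and 11.3, 9.91 and 7.67 CPM in BM embryos at 13 DAP. In 5 DAP libraries the values were 1.59, 1.12 and 1.06 CPM in MB and 3.33, 2.82 and 5.13 CPM in BM embryos. The groups had the same order and again did not overlap. BX5 (GRMZM2G063756) was at 97.2, 188 and 135 CPM in MB and 47.7, 34.6 and 27.4 CPM in BM embryos at 13 DAP. The younger embryos of 5 DAP had levels of 1.44, 0.45 and 1.25 CPM in MB and 12.5, 11.7 and 13.6 CPM in BM embryos. The groups of BX5 stood apart in the same way. The interactions were 5.85 ± 0.47 (adjusted p = 9.45e-07) for BX3, 4.14 ± 0.35 (adjusted p = 7.29e-08) for BX4 and 5.66 ± 0.56 (adjusted p = 1.13e-04) for BX5. From 5 to 13 DAP all 3 rose in MB, by 5.09 for BX3, 5.55 for BX4 and 7.26 for BX5 on the log2 scale. In BM the log2 change was 1.41 for BX4 and 1.59 for BX5, both rises, while BX3 fell (-0.76 ± 0.30, adjusted p = 0.0422). The pathway list was added after these values were seen. Of its 8 members 5 were tested, 4 had a positive interaction and bx9 was not called. The fourth, bx8, a glucosyltransferase of the pathway, had 0.93 ± 0.28 (adjusted p = 0.0188), a call that was lost without replicate 2 of MB at 5 DAP, without replicate 3 of BM at 13 DAP and without replicate 2 of MB at 13 DAP. The genes bx1, bx2 and BX14 did not pass the filter on low counts. Of the other genes named by rule, cc7, a cystatin, averaged 12.2 ± 2.62 CPM in MB and 5.92 ± 1.19 CPM in BM embryos at 13 DAP. Before that, at 5 DAP, the means were 11 ± 0.801 CPM in MB and 43.6 ± 8.45 CPM in BM embryos, and the interaction was 3.20 ± 0.26 (adjusted p = 1.48e-08). The gene 1-19 averaged 58 ± 4.76 CPM in MB and 18.6 ± 1.06 CPM in BM embryos at 13 DAP. Means at 5 DAP were 13.9 ± 0.839 CPM in MB and 33.3 ± 3.83 CPM in BM embryos, and the interaction was 3.07 ± 0.15 (adjusted p = 9.73e-12).

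Genes that turned to BM included several with almost no reads in 1 cross at 1 age. MYBR87, of the MYB-related family, averaged 5.53 ± 1.01 CPM in MB and 24.2 ± 1.14 CPM in BM embryos at 13 DAP. The 5 DAP means were 5.38 ± 0.166 CPM in MB and 0.226 ± 0.392 CPM in BM embryos, and the interaction was -6.33 ± 0.57 (adjusted p = 5.74e-07). The change from 5 to 13 DAP was called in BM, a rise of 6.59, and not in MB (0.27 ± 0.31). At 9 DAP, outside the fit, MYBR87 averaged 32.3 ± 5.07 CPM in MB and 33.5 ± 2.47 CPM in BM embryos. The course of opr2, a 12-oxophytodienoate reductase gene, was a fall in both crosses, with averages of 0.0262 ± 0.0453 CPM in MB and 0.579 ± 0.297 CPM in BM embryos at 13 DAP. For 5 DAP the means were 41.8 ± 4.11 CPM in MB and 8.62 ± 3.31 CPM in BM embryos, and the interaction was -6.13 ± 0.97 (adjusted p = 1.91e-04). The MLO family gene mlo3 averaged 0.203 ± 0.0917 CPM in MB and 0.802 ± 0.394 CPM in BM embryos at 13 DAP. Earlier, at 5 DAP, the means were 10.2 ± 0.962 CPM in MB and 0.327 ± 0.195 CPM in BM embryos, and the interaction was -6.69 ± 0.69 (adjusted p = 5.31e-07). The unnamed GRMZM2G106741 had no read in MB at 13 DAP, at least 5.53-fold lower than in BM. In embryos of 7 DAP it was higher in MB by 6.45 ± 0.39 (adjusted p = 8.78e-05) on the log2 scale.

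Starch genes went both ways. All 20 list members were tested, 9 had a positive and 6 a negative interaction (45% and 30%, against 12% of all genes each), and the median was 0.19. The 6 negative members included bt1, sh2, bt2, wx1 and sh1, and the 9 positive ones included ae1, sbe1, pho1, zpu1, iso2 and iso3. Both sets thus held genes known from starch synthesis in the endosperm. The ADP-glucose transporter gene bt1 (GRMZM2G144081) was at 4.47, 4.75 and 3.4 CPM in MB and 66.1, 81.9 and 57.7 CPM in BM embryos at 13 DAP. The levels at 5 DAP were 0.578, 0.3 and 0.688 CPM in MB and 0.271, 0.582 and 0.155 CPM in BM embryos. At 13 DAP every BM library was far above the MB libraries, and at 5 DAP the levels were low and overlapped. The interaction was -4.53 ± 0.56 (adjusted p = 5.37e-06). The gene sh2, the large subunit of endosperm ADP-glucose pyrophosphorylase, was at 17.5, 17.1 and 17.1 CPM in MB and 129, 193 and 189.8 CPM in BM embryos at 13 DAP. By comparison, 5 DAP values were 4.91, 3.45 and 4 CPM in MB and 5.43, 5.82 and 3.73 CPM in BM embryos, and the interaction was -2.85 ± 0.28 (adjusted p = 3.65e-06). The small subunit gene bt2 averaged 43.7 ± 1.6 CPM in MB and 222 ± 44.6 CPM in BM embryos at 13 DAP. In 5 DAP libraries the means were 26 ± 0.522 CPM in MB and 17 ± 3.81 CPM in BM embryos, and the interaction was -2.77 ± 0.22 (adjusted p = 1.51e-06). The granule-bound starch synthase gene wx1 was at 7.3, 12.1 and 8.8 CPM in MB and 80.2, 109 and 74.7 CPM in BM embryos at 13 DAP. The younger embryos of 5 DAP had values of 3.4, 1.87 and 2.75 CPM in MB and 0.543, 1.08 and 1.17 CPM in BM embryos. In wx1 the crosses stood apart at both ages in opposite order, with an interaction of -4.60 ± 0.44 (adjusted p = 3.73e-06). The sucrose synthase gene sh1 averaged 138 ± 6.75 CPM in MB and 312 ± 28.7 CPM in BM embryos at 13 DAP. Before that, at 5 DAP, the means were 269.9 ± 33.3 CPM in MB and 152 ± 8.08 CPM in BM embryos, and the interaction was -1.83 ± 0.13 (adjusted p = 4.89e-09). Of the sugar transport list, the sucrose transporter gene sut1 averaged 9.68 ± 1.78 CPM in MB and 39.2 ± 3.8 CPM in BM embryos at 13 DAP. Means at 5 DAP were 4.07 ± 0.152 CPM in MB and 1.63 ± 0.989 CPM in BM embryos, and the interaction was -3.12 ± 0.38 (adjusted p = 1.10e-05). At 13 DAP these genes had the order of the zein sum, which was also higher in BM than in MB and overlapped between the crosses at 5 DAP. Only 1 of 21 members of the zein list had a called interaction. At 11 DAP bt1 was higher in MB, by 1.49 ± 0.24 on the log2 scale. The zein sum there was 1267 to 2423 CPM in MB and 1895 to 7764 CPM in BM embryos. The part of endosperm RNA in the values of the starch and sugar transport genes was not tested. The positive group also included other genes of ADP-glucose pyrophosphorylase. GRMZM2G027955 (AGP2) was at 1575, 1614 and 1700 CPM in MB and 717, 796 and 776 CPM in BM embryos at 13 DAP. The 5 DAP levels were 72.7, 89.8 and 79 CPM in MB and 104, 104 and 101 CPM in BM embryos, with no overlap at either age. GRMZM2G106213 (Agp2), known as a small subunit of the embryo form, averaged 985 ± 147 CPM in MB and 633 ± 26.7 CPM in BM embryos at 13 DAP. Its means at 5 DAP were 136 ± 9.97 CPM in MB and 168 ± 10.9 CPM in BM embryos. Both rose in both crosses and turned to MB, with interactions of 1.63 ± 0.11 (adjusted p = 6.27e-10) for GRMZM2G027955 and 1.12 ± 0.12 (adjusted p = 1.19e-06) for GRMZM2G106213. The starch list gave 6 positive and 6 negative calls on FPKM with a pseudocount of 1, and 12 of its 15 calls were lost in the fit over all 48 libraries.

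Further genes had a difference that appeared at 13 DAP with BM higher. NRP1 (GRMZM2G062650), a NAC family gene known as imprinted in endosperm, was at 1.88, 2.45 and 2.47 CPM in MB and 36.2, 51.5 and 36.5 CPM in BM embryos at 13 DAP. For 5 DAP the values were 3.25, 2.25 and 2.31 CPM in MB and 2.65, 2.08 and 1.55 CPM in BM embryos. Between these end points it rose in BM only, by 4.34 on the log2 scale against 0.03 ± 0.26 in MB, and its interaction was -4.31 ± 0.34 (adjusted p = 9.50e-09). At 11 DAP, outside the fit, NRP1 averaged 73.7 ± 16.3 CPM in MB and 41.8 ± 7.39 CPM in BM embryos. The gene lec1 (GRMZM2G011789), a CCAAT-box binding regulator of embryo development, was at 4.63, 2.59 and 4.63 CPM in MB and 23.2, 18 and 14.6 CPM in BM embryos at 13 DAP. Earlier, at 5 DAP, the levels were 87.9, 51.6 and 69 CPM in MB and 49.4, 40.04 and 48 CPM in BM embryos. It fell in both crosses and fell further in MB, so that the groups stood apart at 13 DAP, with an interaction of -2.67 ± 0.35 (adjusted p = 1.78e-04). Of the 6 embryo maturation regulators tested only lec1 had a negative and ABI22 a positive interaction. Among 10 tested storage and late-embryogenesis genes 3 had a negative and 2 a positive interaction (30% and 20%, against 12% of all genes each), and 1 of the positive calls was lost in 10 of the 12 fits that left out a library. The legumin gene leg1 was at 16.3, 31.6 and 23.1 CPM in MB and 207, 274 and 173 CPM in BM embryos at 13 DAP. The values at 5 DAP were 11.7, 7.79 and 8.32 CPM in MB and 12.6, 10.1 and 12.7 CPM in BM embryos, and the interaction was -2.67 ± 0.42 (adjusted p = 0.00168). ZCN11, of the phosphatidylethanolamine-binding family, averaged 0.666 ± 0.333 CPM in MB and 12.3 ± 3.27 CPM in BM embryos at 13 DAP. By comparison, 5 DAP means were 0.365 ± 0.122 CPM in MB and 0.401 ± 0.407 CPM in BM embryos, and the interaction was -3.85 ± 0.87 (adjusted p = 0.00322). The cytokinin response regulator gene crr2 averaged 0.0257 ± 0.0446 CPM in MB and 0.298 ± 0.13 CPM in BM embryos at 13 DAP. In 5 DAP libraries the means were 14.5 ± 3.32 CPM in MB and 9.69 ± 0.916 CPM in BM embryos, and the interaction was -3.71 ± 0.92 (adjusted p = 0.00531). Zma1158 and the unnamed GRMZM2G143494 had no read in MB at 13 DAP, where they were at least 9.05-fold and at least 4.53-fold lower than in BM.

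Genes whose difference appeared with MB higher at 13 DAP included prcw1, which was at 3.14, 3.89 and 4.63 CPM in MB and 0, 0.184 and 0.237 CPM in BM embryos at 13 DAP. The younger embryos of 5 DAP had levels of 8.81, 10.3 and 8.57 CPM in MB and 10.2, 10.3 and 10.02 CPM in BM embryos. It was near 0 in BM embryos at 13 DAP, and its interaction was 5.11 ± 0.50 (adjusted p = 2.92e-07). NAC63, of the NAC family, had 6 reads in MB and none in BM at 13 DAP, and its interaction of 5.11 ± 1.44 (adjusted p = 0.0144) followed a fall with age in both crosses and was not called on FPKM. The gene thi2, of thiamine synthesis, averaged 63.5 ± 20.6 CPM in MB and 20.6 ± 8.47 CPM in BM embryos at 13 DAP. Before that, at 5 DAP, the means were 27.8 ± 8.79 CPM in MB and 44.9 ± 16.2 CPM in BM embryos, and the interaction was 2.47 ± 0.59 (adjusted p = 0.0167). GAD, a glutamate decarboxylase gene, averaged 12.7 ± 0.942 CPM in MB and 3.44 ± 0.37 CPM in BM embryos at 13 DAP. At 5 DAP the means were 12.5 ± 1.8 CPM in MB and 14.4 ± 1.73 CPM in BM embryos, and the interaction was 2.25 ± 0.24 (adjusted p = 7.89e-07). For sfp4 the interaction of 1.94 ± 0.55 (adjusted p = 0.0139) was called neither without replicate 2 of BM at 5 DAP (adjusted p = 0.0916) nor on FPKM. Of 25 heat shock genes tested 10 had a positive and 2 a negative interaction (40% and 8%, against 12% of all genes each). Of the 12 called, 4 appeared, 4 faded, 2 turned and 2 grew. At 13 DAP 8 members were called higher and 2 lower in MB, and at 5 DAP 3 were called higher and 10 lower. The list median of log2 MB over BM was -0.04 at 13 DAP and -0.22 at 5 DAP. The chaperone gene Hsp70 (GRMZM2G310431) was at 376, 534 and 488 CPM in MB and 187, 208 and 171 CPM in BM embryos at 13 DAP. The 5 DAP values were 89.2, 87.4 and 97.8 CPM in MB and 95.4, 97.7 and 106 CPM in BM embryos. The crosses overlapped at 5 DAP and every MB library was above the BM libraries at 13 DAP, with an interaction of 1.61 ± 0.17 (adjusted p = 7.14e-06). The disaggregase gene hsp101 averaged 55.5 ± 10.6 CPM in MB and 28.8 ± 1.25 CPM in BM embryos at 13 DAP. For 5 DAP the means were 19.9 ± 1.03 CPM in MB and 19.1 ± 2.19 CPM in BM embryos, and the interaction was 1.06 ± 0.19 (adjusted p = 2.54e-04). The small heat shock gene hsp22 turned to MB and averaged 27.7 ± 6.65 CPM in MB and 16.7 ± 4.77 CPM in BM embryos at 13 DAP. Earlier, at 5 DAP, the means were 5.72 ± 1.58 CPM in MB and 15.4 ± 2.3 CPM in BM embryos, and the interaction was 2.32 ± 0.35 (adjusted p = 2.22e-04). The list gave 8 positive and 3 negative calls on FPKM with a pseudocount of 1, and none of its 12 calls remained in the fit over all 48 libraries. Of 24 tested genes of DNA methylation and silencing 11 had a positive and 3 a negative interaction (45.8% and 12.5%, against 12% of all genes each), with a median of 0.44. Of these, 6 appeared and 6 faded. At 13 DAP 7 members were called higher and 3 lower in MB, and at 5 DAP 2 were called higher and 9 lower. At 11 DAP, outside the fit, 0 were called higher and 9 lower in MB. Among them rdr6, an RNA-dependent RNA polymerase gene, turned to MB and averaged 41.6 ± 2.46 CPM in MB and 29.9 ± 0.586 CPM in BM embryos at 13 DAP. The means at 5 DAP were 43.8 ± 3.15 CPM in MB and 54.1 ± 3.04 CPM in BM embryos, and the interaction was 0.95 ± 0.12 (adjusted p = 9.30e-06). The DNA methylation gene met2 appeared with BM higher and averaged 311 ± 16.8 CPM in MB and 444 ± 5.33 CPM in BM embryos at 13 DAP. By comparison, 5 DAP means were 458 ± 21.7 CPM in MB and 399.9 ± 9.51 CPM in BM embryos, and the interaction was -0.53 ± 0.09 (adjusted p = 1.74e-04). On FPKM this list had 5 positive and 3 negative calls, and 13 of its 14 calls were lost in the fit over all 48 libraries.

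A difference of the same sign that was larger at 13 than at 5 DAP was mainly one of higher levels in BM. Of the 215 growing genes 162 were higher in BM, with a median log2 MB over BM of -3.88 at 13 DAP and -1.47 at 5 DAP, and 53 were higher in MB, with medians of 0.71 at 13 DAP and 0.32 at 5 DAP. Among 23 genes of the basal transfer layer and embryo-surrounding endosperm, all tested, 17 had a negative (73.9%, against 12% of all genes) and none a positive interaction, with a median of -2.04, and 15 of the 17 were growing genes. At 13 DAP 21 of the 23 were lower in MB and none was higher, and at 5 DAP 20 were lower and 2 higher. The transfer layer gene betl3 (GRMZM2G175976) was at 0, 0.072 and 0.0772 CPM in MB and 6.92, 10.2 and 8.78 CPM in BM embryos at 13 DAP. In 5 DAP libraries the levels were 17.7, 13.6 and 13.8 CPM in MB and 170.3, 151 and 157 CPM in BM embryos. It fell with age in both crosses, and MB was below BM at both ages without overlap, with log2 differences of -7.12 ± 0.38 at 13 DAP and -3.49 ± 0.13 at 5 DAP. Its interaction was -3.63 ± 0.60 (adjusted p = 1.51e-04). The MB reads of betl3 at 13 DAP were below the floor of 3 counts over the group. Depth therefore does not resolve the size of its 13 DAP difference and interaction. The embryo-surrounding gene esr2 was at 7.3, 4.61 and 11.1 CPM in MB and 199, 370.4 and 317 CPM in BM embryos at 13 DAP. The younger embryos of 5 DAP had values of 793, 798 and 801 CPM in MB and 4008, 4368 and 3815 CPM in BM embryos, and the interaction was -2.75 ± 0.41 (adjusted p = 0.00151). The cell wall invertase gene mn1, of the transfer layer, averaged 0.258 ± 0.321 CPM in MB and 19.7 ± 4.48 CPM in BM embryos at 13 DAP. Before that, at 5 DAP, the means were 16.3 ± 2.23 CPM in MB and 152 ± 4.76 CPM in BM embryos, and the interaction was -2.86 ± 0.56 (adjusted p = 0.00287). At 11 DAP, outside the fit, betl3 averaged 7.16 ± 2.2 CPM in MB and 14.4 ± 9.86 CPM in BM embryos. There esr2 averaged 242 ± 75.8 CPM in MB and 328 ± 219.6 CPM in BM embryos. The list median of log2 MB over BM was -1.28 at 7 DAP, 0.86 at 9 DAP and 0.07 at 11 DAP, with 0 members called. At 9 DAP the 17 marker genes summed to 1607 to 1963 CPM in MB and 272 to 1452 CPM in BM embryos. At 11 DAP they summed to 670 to 1287 CPM in MB and 467 to 2204 CPM in BM embryos. The growth thus compares 5 with 13 DAP and was not a steady course. Several of these genes are near-identical copies that can share reads, so single values are uncertain, and the call of mn1 was lost on FPKM with a pseudocount of 1. The count of 17 fell to 11 without replicate 1 of MB at 13 DAP, and 7 of the 17 calls were lost in at least 1 fit that left out a library. None was called in the fit over all 48 libraries, and on FPKM with a pseudocount of 1 the list had 3 positive and 16 negative calls. Of 21 zeins and endosperm regulators only 1 had an interaction (4.76%, against 24% of all genes), although 17 were lower in MB at 13 DAP. With FPKM and a pseudocount of 1, 16 of them had a negative interaction. The 150 shrinking genes included 116 that were higher in MB, with medians of 0.49 at 13 DAP and 1.35 at 5 DAP.

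**Figure D4:**
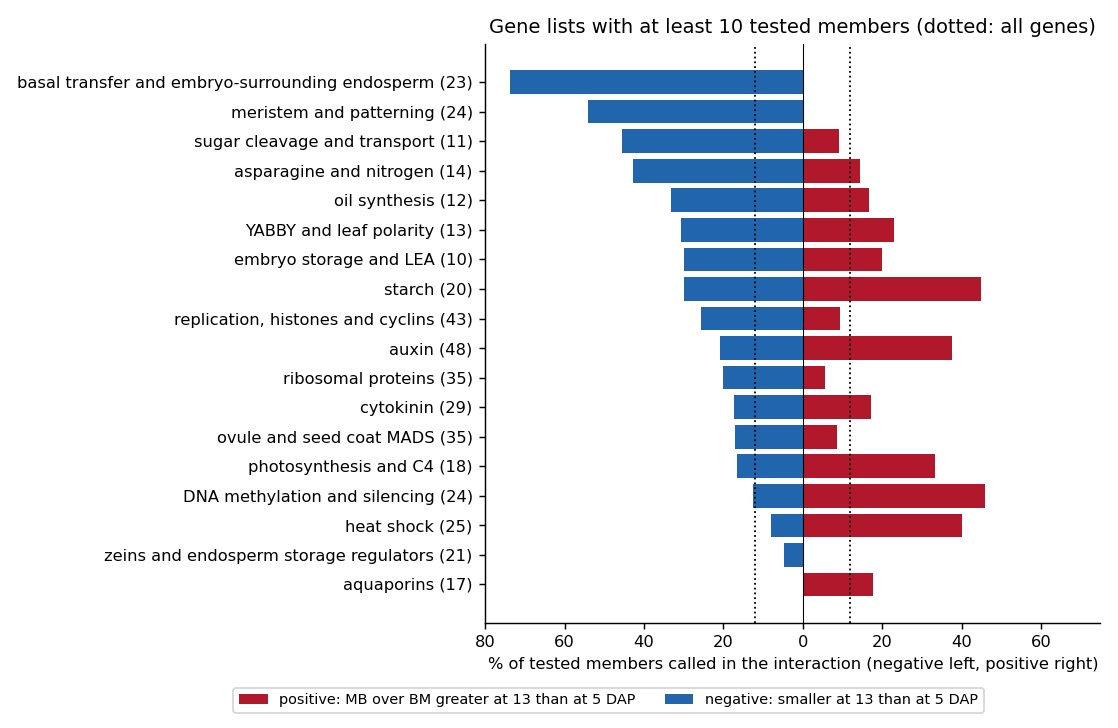
Share of tested members of each gene list (with at least 10 tested members, number in brackets) with a called interaction, negative to the left and positive to the right, with dotted lines at the 12% of all genes called in each direction. The basal transfer, meristem and zein lists had negative calls only, and the silencing, starch and heat shock lists reached furthest to the right.

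The remaining lists had calls in both directions or few calls. Genes of replication, histones and cyclins had 11 negative and 4 positive interactions of 43 tested (25.6% and 9.3%, against 12% of all genes each). On FPKM with a pseudocount of 1 they had 17 negative and 2 positive, and the replication clamp gene pcna1 averaged 79.9 ± 10.9 CPM in MB and 128 ± 12.4 CPM in BM embryos at 13 DAP. At 5 DAP the means were 149.7 ± 3.09 CPM in MB and 119 ± 13.1 CPM in BM embryos, and the interaction was -0.84 ± 0.14 (adjusted p = 3.43e-04). Ribosomal protein genes had 7 negative and 2 positive of 35, together 25.7% and so near the 24% of all genes. The 7 became 11 without replicate 3 of MB at 13 DAP, and FPKM with a pseudocount of 1 gave 19 and 1. Genes of the ovule MADS list had 6 negative and 3 positive of 35, together 25.7%, also near the share of all genes, with 4 and 4 by DESeq2 and 2 and 6 on FPKM with a pseudocount of 1. Aquaporins had 3 positive of 17 (17.6%), a count that was 5 without replicate 2 of BM at 5 DAP. It was 1 without replicate 1 of MB or replicate 2 of BM at 13 DAP and without replicate 1 or 2 of MB or replicate 3 of BM at 5 DAP. Aleurone genes had 3 calls in each direction of 9 (33.3% each), with 5 negative calls without replicate 2 of MB at 13 DAP and 2 positive and 4 negative calls on FPKM with a pseudocount of 1. Flavonoid genes had 2 positive of 7 (28.6%). Without replicate 3 of BM at 13 DAP they had 2 positive and 2 negative, without replicate 2 of MB at 13 DAP 1 of each, and without replicate 2 of MB or replicate 3 of BM at 5 DAP 2 and 1. On FPKM with a pseudocount of 1 they had 1 negative call.

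Libraries outside the fit allowed the classes to be followed elsewhere, each kind of sample tested on its own 6 libraries. The share of all genes called between the crosses was 6.96% in embryos laser-captured at 5 DAP and 21.3% in endosperm dissected at that age. In hand-collected embryos it was 8.32% at 7 DAP and 14.3% at 11 DAP. At 3 DAP after laser capture 3 genes were called (0.0161%) and at 9 DAP 6 genes (0.029%), 3 in each direction (0.0145% each), too few to follow a class. At 9 DAP replicate 3 of MB and replicate 1 of BM correlated more with a library of the other cross than with their own. Genes that faded from a higher level in MB were called higher in MB in 100 of 934 cases (10.7%) and lower in 11 (1.18%) in laser-captured embryos at 5 DAP, where 3.14% of all genes were higher and 3.82% lower. At 7 DAP 136 of 1198 were higher (11.4%, against 3.73% of all genes) and 24 lower (2%, against 4.59%). At 11 DAP both shares of the class were below those of all genes, with 67 of 1184 higher (5.66%, against 6.87%) and 44 lower (3.72%, against 7.42%).

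Genes that faded from a higher level in BM were also followed. In laser-captured embryos 51 of 681 were lower in MB (7.49%) and 9 higher (1.32%), and at 7 DAP 72 of 806 were lower (8.93%) and 11 higher (1.36%). At 11 DAP 190 of 809 were still lower in MB (23.5%, against 7.42% of all genes) and 78 higher (9.64%). The genes that turned to MB at 13 DAP were called lower in MB at 11 DAP in 180 of 651 cases (27.6%) and higher in 58 (8.91%). At 7 DAP 38 of 647 were lower in MB (5.87%) and 30 higher (4.64%). Of the genes that turned to BM, 38 of 252 were higher in MB in laser-captured embryos (15.1%) and 4 lower (1.59%). At 7 DAP 43 of 303 were higher (14.2%) and 18 lower (5.94%), and at 11 DAP 26 of 292 were higher (8.9%) and 21 lower (7.19%). Appearing genes were followed in the same way. At 7 DAP 53 of 931 genes that appeared with MB higher were higher in MB (5.69%, against 3.73% of all genes) and 17 lower (1.83%, against 4.59%). Of those that appeared with BM higher 81 of 688 were lower in MB (11.8%) and 25 higher (3.63%). At 11 DAP 98 of 941 that appeared with MB higher were higher in MB (10.4%, against 6.87%) and 113 lower (12%, against 7.42%). Of those that appeared with BM higher 84 of 673 were lower in MB (12.5%) and 43 higher (6.39%). Of the growing genes 73 of 194 were lower in MB in endosperm at 5 DAP (37.6%, against 12.2% of all genes) and 12 higher (6.19%). At 11 DAP 38 of 205 were higher in MB (18.5%, against 6.87% of all genes) and 2 lower (0.976%, against 7.42%). The class holds 162 genes higher in BM and 53 higher in MB, and these counts were not split by sign. The appearing genes bt1 and NRP1 had the opposite order at 11 DAP to that at 13 DAP. For bt1 the levels were 109 ± 31.4 CPM in MB and 39.9 ± 8.06 CPM in BM embryos, a log2 difference of 1.49 ± 0.24 (adjusted p = 0.00841). NRP1 averaged 73.7 ± 16.3 CPM in MB and 41.8 ± 7.39 CPM in BM embryos, a log2 difference of 0.87 ± 0.17 (adjusted p = 0.00702).

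**Figure D5:**
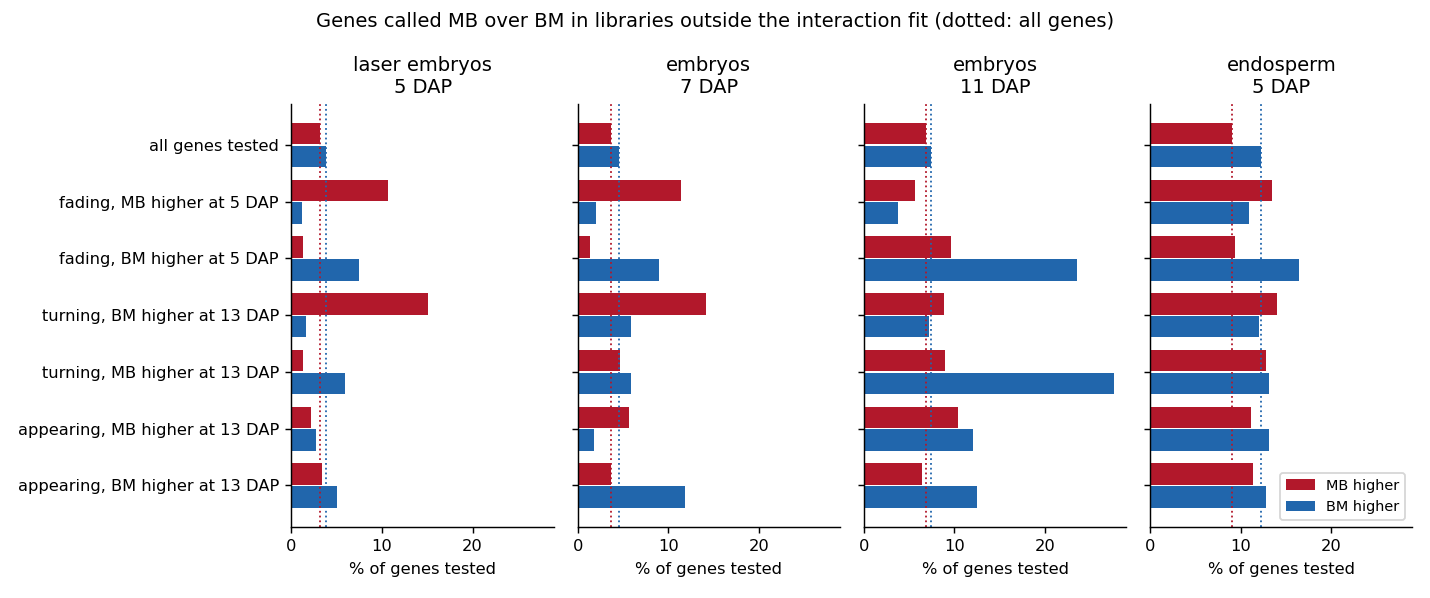
Share of the tested genes of each class that were called higher or lower in MB than in BM in 4 kinds of sample outside the fit, with dotted lines for all genes tested in that kind. Genes that faded from a higher level in MB exceeded the dotted line for higher in MB in laser-captured embryos at 5 DAP (10.7%) and at 7 DAP (11.4%), but not at 11 DAP (5.66%).

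Endosperm and embryo of 5 DAP were also compared, as a measure that the interaction did not use, with cross as an additive term. The endosperm was dissected and the embryos were laser-captured, so tissue and way of collection cannot be told apart. The transfer layer and embryo-surrounding sum was 207 to 1181 CPM in endosperm and 7277 to 28413 CPM in laser-captured embryos of MB. In BM it was 2549 to 3584 CPM and 3221 to 8892 CPM. Of all genes tested 40.4% were higher in endosperm than in laser-captured embryo and 39% were lower. Among genes that faded from a higher level in MB 33.9% were higher in endosperm and 45.7% lower, and among genes that turned to BM 30.9% were higher and 54% lower. Among genes that faded from a higher level in BM 51.6% were higher in endosperm and 31.4% lower, and among genes that turned to MB 52.9% were higher and 31% lower. The appearing genes, which had no called difference at 5 DAP, had the same order by sign of the interaction. Among those with BM higher at 13 DAP 33.2% were higher in endosperm and 46.8% lower, and among those with MB higher 50.1% were higher and 32.5% lower. The share higher in laser-captured embryo was thus above that of all genes in the fading, turning and appearing classes with a negative interaction. The share higher in dissected endosperm was above that of all genes in those with a positive one, a description with no test. Among growing genes 53.5% were higher in endosperm and 39.9% lower. The part of endosperm RNA in these shares was not tested.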

How the data were processed

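Messenger RNA libraries from embryos of the reciprocal crosses were sequenced on an Illumina HiSeq. The deposited table holds, per the file headers, whole raw counts of each gene model in each library, and beside them FPKM values that the authors normalised. TopHat, HTSeq, Cufflinks 2.2.1 and FastQC are named in the submitters' processing notes, without their roles. Build, annotation, counting mode and strand: not given in the sources used here. Transcripts of opposite strands therefore cannot be told apart.

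From the counts of the 12 libraries, edgeR 4.0.16 in R 4.3.3 was run with filterByExpr by group, TMM factors, robust dispersion and quasi-likelihood fits and glmQLFTest, two-sided. Genes were called below 0.05 after Benjamini-Hochberg adjustment across the 23141 that passed the filter. The interaction was (MB over BM at 13 DAP) minus (MB over BM at 5 DAP), and the differences at each age were contrasts of the same fit. CPM is the count over the library total. Libraries of other kinds were fitted apart, 3 against 3. Replicates are called biological only as far as the labels say, so p-values measure the spread between these pools. Same-numbered libraries did not deviate together (correlations from -0.262 to 0.187), so numbers were not taken to pair them.

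Genes were named as the 5 largest interactions with an informative name in each of 6 classes, with an absolute log2 interaction of at least 1, a mean of at least 10 CPM in some group and no overlap of the crosses at each age called, plus the largest whatever its name, plus called members of 22 gene lists; 1 of these genes is not reported here. Symbols came from RefSeq's table of the Zm-B73-REFERENCE-NAM-5.0 assembly, which matched 18775 of 39656 gene models (47.3%). The members and lists were chosen with earlier results of these data known. Alternatives were RLE scaling, DESeq2 1.42.0, other filters on low counts, limma 3.58.1 on log2 FPKM with pseudocounts of 1 and 0.1, a replicate block, a fit over all 48 libraries and leaving out each library. The pipeline was tested on simulated data. Floors for groups without reads were 3 counts over the group and cover counting error only.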

Additional observations from a re-analysis of the deposited data

Results flagged for a closer look

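For each gene below the MB over BM difference at 13 DAP differed from that at 5 DAP by the interaction test of edgeR, and the log2 interactions below are the values that drew attention, with no explanation weighed. Among genes that faded from a higher level in MB they were -8.75 for asn2, -4.73 for DEF1, -4.12 for GRAS19, -3.94 for AN3 and -13.87 for GRMZM2G035045. Among genes that faded from a higher level in BM they were 2.24 for ARF5, 2.02 for LAZ1-6, 1.68 for THX20, 1.52 for gln5, 1.42 for NHX5 and 5.33 for GRMZM5G851266.

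Genes that appeared with MB higher had interactions of 5.11 for NAC63, 5.11 for prcw1, 2.47 for thi2, 2.25 for GAD and 1.94 for sfp4. Genes that appeared with BM higher had -6.04 for Zma1158, -4.53 for bt1, -4.31 for NRP1, -3.85 for ZCN11, -3.71 for crr2 and -6.33 for GRMZM2G143494. Genes that turned to MB had 5.85 for BX3, 5.66 for BX5, 4.14 for BX4, 3.20 for cc7 and 3.07 for 1-19. Genes that turned to BM had -7.19 for kn1, -7.17 for knox4, -6.69 for mlo3, -6.33 for MYBR87, -6.13 for opr2 and -9.56 for GRMZM2G106741. Fitted values of genes with a group at 0 reads depend on the prior count and are no bound.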

How the results depend on the processing

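The count of 5558 interaction genes was 5611 with RLE scaling, 5833 with DESeq2, 5467 without a filter on low counts, 5564 with a filter at 1 CPM, and 5628 and 5344 by limma on FPKM with pseudocounts of 1 and 0.1 (3579 and 3582 of them shared). A replicate block gave 5136, of which 5051 were shared, and the replicate numbers pair no samples by the check of their deviations. A single fit over all 48 libraries, whose spread is that of every kind of sample, gave 757 interaction genes (736 shared), 1546 genes at 5 DAP, 789 at 13 DAP, 439 fading, 172 appearing, 25 turning and 121 other interaction genes. Requiring an absolute log2 value of at least 1 in every contrast that defines a class left 2252 interaction genes, 2176 at 5 DAP, 1384 at 13 DAP, 885 fading, 450 appearing and 114 turning. Leaving out each library in turn gave 4482 to 5649 interaction genes, 4938 to 6916 at 5 DAP, 3921 to 6526 at 13 DAP, 1622 to 2107 fading, 1168 to 1860 appearing, 662 to 1013 turning and 707 to 888 other interaction genes.

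The median interaction over all genes tested was -0.07, against -0.18 and -0.22 on FPKM with pseudocounts of 1 and 0.1, -0.12 in the fit over all 48 libraries and -0.13 without a filter. On FPKM the median difference at 5 DAP was 0.12 and 0.14, against 0.01. Of 714 alternative values for the 34 genes named by rule 695 stayed called in the same direction, 19 in 10 genes were no longer called and 0 reversed. The 5 DAP libraries in BM correlated least among themselves, at 0.955, and genes with a few reads in a group carry fold changes that depth does not resolve.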

Other observations

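Cytokinin genes had 5 positive and 5 negative interactions of 29 tested (17.2% each, against 12% of all genes). The even split rests on the unit and the size required. With FPKM and a pseudocount of 1 it was 4 positive and 8 negative, with 0.1 it was 3 and 7, in the fit over all 48 libraries 0 and 3, and with an absolute log2 value of at least 1 it was 0 and 5. The cytokinin receptor gene HK1b2 was higher in MB at both ages and averaged 64.3 ± 3.31 CPM in MB and 51.9 ± 0.806 CPM in BM embryos at 13 DAP, against 28.4 ± 2.68 CPM in MB and 5.35 ± 0.322 CPM in BM embryos at 5 DAP. Its interaction was -1.92 ± 0.14 (adjusted p = 4.54e-09) with edgeR's quasi-likelihood test and Benjamini-Hochberg adjustment. Of 12 oil synthesis genes 4 had a negative and 2 a positive interaction (33.3% and 16.7%), and 5 and 1 on FPKM with a pseudocount of 1. The stearoyl-ACP desaturase gene SAD1 averaged 2479 ± 60.5 CPM in MB and 2000 ± 31.6 CPM in BM embryos at 13 DAP, against 179 ± 3.51 CPM in MB and 88.7 ± 8.94 CPM in BM embryos at 5 DAP. The difference shrank, with an interaction of -0.52 ± 0.09 (adjusted p = 3.05e-04).

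Of 18 tested genes of photosynthesis and C4 metabolism 6 had a positive and 3 a negative interaction (33.3% and 16.7%). On FPKM with a pseudocount of 1 these were 3 and 4, and without replicate 2 of BM at 13 DAP 5 and 1. The malic enzyme gene me2 averaged 4430 ± 45.9 CPM in MB and 2178 ± 60.2 CPM in BM embryos at 13 DAP, against 556 ± 2.46 CPM in MB and 342 ± 14 CPM in BM embryos at 5 DAP. The difference grew, with an interaction of 0.50 ± 0.07 (adjusted p = 5.04e-05). PPDK, a pyruvate phosphate dikinase gene, averaged 460.4 ± 55.6 CPM in MB and 1024 ± 94.8 CPM in BM embryos at 13 DAP, against 46.5 ± 3.12 CPM in MB and 39.95 ± 3.28 CPM in BM embryos at 5 DAP. The difference appeared with BM higher, with an interaction of -1.19 ± 0.14 (adjusted p = 9.94e-06). Of 11 tested genes of sugar cleavage and transport 5 had a negative and 1 a positive interaction (45.5% and 9.09%). Of 8 polycomb and imprinted genes 5 had a negative and 1 a positive interaction (62.5% and 12.5%), with 4 and 2 by RLE scaling or DESeq2. The negative calls fell to 3 without replicate 2 or 3 of MB at 13 DAP or replicate 2 of BM at 5 DAP, and 3 of the 6 calls were lost in at least 1 fit that left out a library. The polycomb gene fie1 had an interaction of -1.54 ± 0.44 (adjusted p = 0.0148), which was lost without replicate 3 of MB at 13 DAP.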
